A study of Mus musculus with 9 samples.

Results

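The genes of the proteasome were followed in RAW264.7 cells given LPS with or without G-CDs. Members were the protein-coding genes whose symbols are Psm, 1 letter from a to g and a number. Of the 54532 genes measured, 48 matched, and 47 of them reached an FPKM of at least 1 in 3 or more of the 9 libraries, as did 11585 genes in all. FPKM is the number of reads per gene scaled to gene length and library size. The deposited values also hold a scaling between libraries, since the library size they imply was 1.11 to 1.14 times the reads on genes in control, 0.929 to 0.936 times in LPS and 0.88 to 0.98 times in LPS + G-CDs libraries. The gene left out was Psmb11, the thymus form of a catalytic subunit, which was at or below 0.0151 FPKM in every library, whereas the lowest value of the weakest member kept, Psmb9, was 3.33. The 47 genes comprised 32 genes here called standard subunits (8 of the 20S alpha ring, 4 structural and 3 catalytic subunits of the 20S beta ring, 6 ATPases and 11 non-ATPase subunits of the 19S cap), 5 immunoproteasome genes (Psmb8, Psmb9, Psmb10, Psme1 and Psme2), 3 chaperones of 19S assembly, 4 chaperones of 20S assembly and 3 further activators or inhibitors. The 8 include Psma8, the testis counterpart of Psma7, without which the median log2 fold changes of the remaining 31 given below were 0.21 in place of 0.20 (LPS against control) and 0.47 as before (LPS + G-CDs against LPS), and the numbers that passed the test or did not overlap did not move.

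RAW264.7 is a macrophage line from a mouse tumour, listed in the labels as wild type and as coming from ascites. Libraries were made from poly(A) RNA of 3 groups of 3 samples each, namely untreated cells (control), cells exposed for 6 h to 1 μg/ml LPS (LPS), a toxin of the bacterial envelope, and cells exposed for 6 h to the same LPS dose and to 400 μg/ml of G-CDs, carbon dots prepared from a licorice plant (LPS + G-CDs). For the last group the sample titles name G-CDs while the treatment label gives LPS only, so the dose follows the study's methods, and no group given G-CDs without LPS was analysed here. Whether the samples of a group were separate cultures is not stated, so p-values measure the spread between these samples, which may be technical.

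The proteasome is the protease that degrades proteins tagged with ubiquitin. Its 20S core is a barrel of alpha rings, which gate the entrance, and beta rings, which hold the active sites, and its 19S cap binds ubiquitin, unfolds the substrate with ATP and feeds it into the core. In cells exposed to interferon, and in immune cells such as macrophages, inducible catalytic subunits take the place of standard ones and the PA28 activator docks onto the core, which favours peptides for presentation on MHC class I.

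All 8 macrophage markers examined were expressed in every library, from Itgam with a lowest value of 6.41 FPKM to Lyz2 with a lowest value of 579, and the 10 markers of T cells, B cells, fibroblasts, epithelium and neutrophils stayed at or below 0.497. Between 14752400 and 17312255 reads lay on genes in each library, and a member held 142 to 12971 reads. Libraries of a group did not match equally well. The median replicate SD of the 47 genes on the log2(FPKM + 1) scale was 0.050 for LPS, 0.284 for control and 0.415 for LPS + G-CDs libraries, against 0.087, 0.244 and 0.259 for all tested genes. The spread among the LPS + G-CDs libraries varied with gene length. In the fifth of genes with a median length of 684 bases, replicate 1 lay at -0.26 and replicate 3 at 0.304 from the group mean (median log2 deviation), and in the fifth with a median of 9132.5 bases they lay at 0.264 and -0.257. Control replicate 3 deviated likewise, at 0.172 and -0.216 for the same genes. The proteasome genes had a median length of 2800 bases and all tested genes 3758, and values with this trend removed are given beside several of the results below. As RNA was measured in bulk, fewer cells with a transcript and less transcript per cell cannot be told apart.

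Promoters of 6 members are shown as examples, and the share of all member promoters with each motif follows them. Those of Psma6 and Psmd11, which also rose with LPS, are not shown and hold no antioxidant response element core. They are the RefSeq sequences of the 250 bases before the start (GRCm38.p6, 5′ to 3′ on the gene's strand), with matches to a searched motif in capitals. Psmd5 (chr2:34870963-34871212, minus strand) was the only member to pass the test in both comparisons, and Psmd8 (chr7:29180674-29180923, minus strand) rose most with LPS. Psmd12 (chr11:107479278-107479527, plus strand), Psmc6 (chr14:45329574-45329823, plus strand) and the standard catalytic gene Psmb5 (chr14:54617996-54618245, minus strand) hold the core of the antioxidant response element, TGACNNNGC. Psmb9 (chr17:34187331-34187580, minus strand) is an inducible catalytic gene whose window overlaps that of Tap1 on the opposite strand (chr17:34187306-34187555).
Psmd5: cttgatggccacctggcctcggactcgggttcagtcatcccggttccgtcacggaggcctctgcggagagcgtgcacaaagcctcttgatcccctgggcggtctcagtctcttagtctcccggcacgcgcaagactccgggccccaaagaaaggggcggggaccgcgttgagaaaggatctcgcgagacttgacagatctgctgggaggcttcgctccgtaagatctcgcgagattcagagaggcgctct
Psmd8: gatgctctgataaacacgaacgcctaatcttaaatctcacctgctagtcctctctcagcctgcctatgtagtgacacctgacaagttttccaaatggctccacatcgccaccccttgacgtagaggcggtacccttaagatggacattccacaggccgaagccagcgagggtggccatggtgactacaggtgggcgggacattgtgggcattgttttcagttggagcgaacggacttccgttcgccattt
Psmd12: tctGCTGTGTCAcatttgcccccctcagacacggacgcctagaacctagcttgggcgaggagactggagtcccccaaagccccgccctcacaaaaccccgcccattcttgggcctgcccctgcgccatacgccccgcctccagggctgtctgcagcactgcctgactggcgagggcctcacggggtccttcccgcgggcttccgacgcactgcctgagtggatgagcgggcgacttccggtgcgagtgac
Psmc6: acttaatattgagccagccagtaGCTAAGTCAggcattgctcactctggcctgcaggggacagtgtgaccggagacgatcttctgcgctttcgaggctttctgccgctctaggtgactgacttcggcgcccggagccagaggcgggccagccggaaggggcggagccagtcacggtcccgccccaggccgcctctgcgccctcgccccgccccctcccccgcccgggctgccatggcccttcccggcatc
Psmb5: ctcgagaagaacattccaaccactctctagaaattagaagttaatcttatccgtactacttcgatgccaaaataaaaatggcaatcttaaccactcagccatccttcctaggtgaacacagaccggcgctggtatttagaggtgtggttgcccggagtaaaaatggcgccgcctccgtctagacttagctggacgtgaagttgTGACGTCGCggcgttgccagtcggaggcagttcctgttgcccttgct
Psmb9: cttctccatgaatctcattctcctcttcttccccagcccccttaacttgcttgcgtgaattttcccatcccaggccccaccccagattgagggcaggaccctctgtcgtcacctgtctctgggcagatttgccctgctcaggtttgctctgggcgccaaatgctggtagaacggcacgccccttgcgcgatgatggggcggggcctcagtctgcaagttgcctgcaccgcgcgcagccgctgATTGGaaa
Windows were found for 40 of the 48 genes, as 43 promoters, and 4 motifs were searched on both strands. TGACNNNGC occurred in 5 of the 43 (11.6%; Psmb5, Psmb6, Psmc6, Psmd12 and Psmd9) and in 10.2% of the 32851 promoters of all genes, and in Psmb5 it began 47 bases before the start. The core of the interferon-stimulated response element, GAAA and after a gap of 2 bases again GAAA, occurred in 3 of the 43 (6.98%) and in 2.98% of all promoters, and in 0 of the 6 promoters of the immunoproteasome genes. A kappa B site, GGGA and after a gap of 2 bases TTCC, occurred in 1 member promoter (Psme4; 2.33%) and in 1.21% of all. The CCAAT box, which includes its reverse ATTGG, occurred in 14 (32.6%) and in 33.8% of all, Psmb9 among them at 8 bases before the start. These are matches of letters in a fixed window and not measured binding sites.

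The first comparison, LPS against control, addressed how the proteasome genes differed after LPS. LPS-treated cells held more of 8 of the 47 transcripts and less of 1, at a Benjamini-Hochberg adjusted p under 0.05 in limma over all 11585 genes. The 8 were Psmd8, Psma6, Psmd11, Psmd1, Psmd3, Psmd12, Psme3 and Psmc6, and the 1 was Psmd5. Of all tested genes, 15.8% were higher and 15.6% were lower by the same test, so 8 of 47 (17%) was near the background for rises, whereas the single fall was below it. At a p under 0.01 and a change of over 1.5-fold, the threshold the study used, 3 members were higher and 1 lower, against 11.9% and 11.2% of all genes. The median log2 fold change was 0.20 over the 47 genes and 0.02 over all genes, and 35 of the 47 (74.5%) lay above 0, against 51% of all genes. Groups did not overlap for 14 higher members (29.8%) and 4 lower ones, against 27.4% and 25.1% of all genes. With the gene-length trend removed, 11 members were higher (17.7% of all genes), groups did not overlap for 23 higher members (48.9%) against 26.4% of all genes, and the median of the standard subunits was 0.30 against -0.01 over all genes. With length and GC trends removed, 12 were higher (17.2% of all genes) and 24 did not overlap (51.1%) against 25.9% of all genes. Leaving out control replicate 1, 2 or 3 moved the fold change of 19, 23 and 24 of the 47 members by over 1.5 times. With 1 library fewer, the number of higher members was 3 without LPS replicate 1 or 3, 4 without LPS replicate 2 or control replicate 2, 5 without control replicate 1 or LPS + G-CDs replicate 2 and 7 to 9 without 1 of the others, and the median of the standard subunits was 0.12 without control replicate 2 and 0.35 without control replicate 3. When each library was rescaled to a common sum (TPM), the median of all genes moved to -0.210 and that of the standard subunits changed sign, from 0.20 to -0.06, which is 0.15 above all genes. On that scale 3 members were higher (Psmd8, Psma6 and Psmd11) and 7 lower (Psmd5, Psmd9, Psmg1, Psmg2, Psmg3, Psma8 and Psmc3). Of all 11585 genes, 1015 were higher and 3106 lower on that scale, so falls outnumbered rises among all genes as well.

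**Figure D1:**
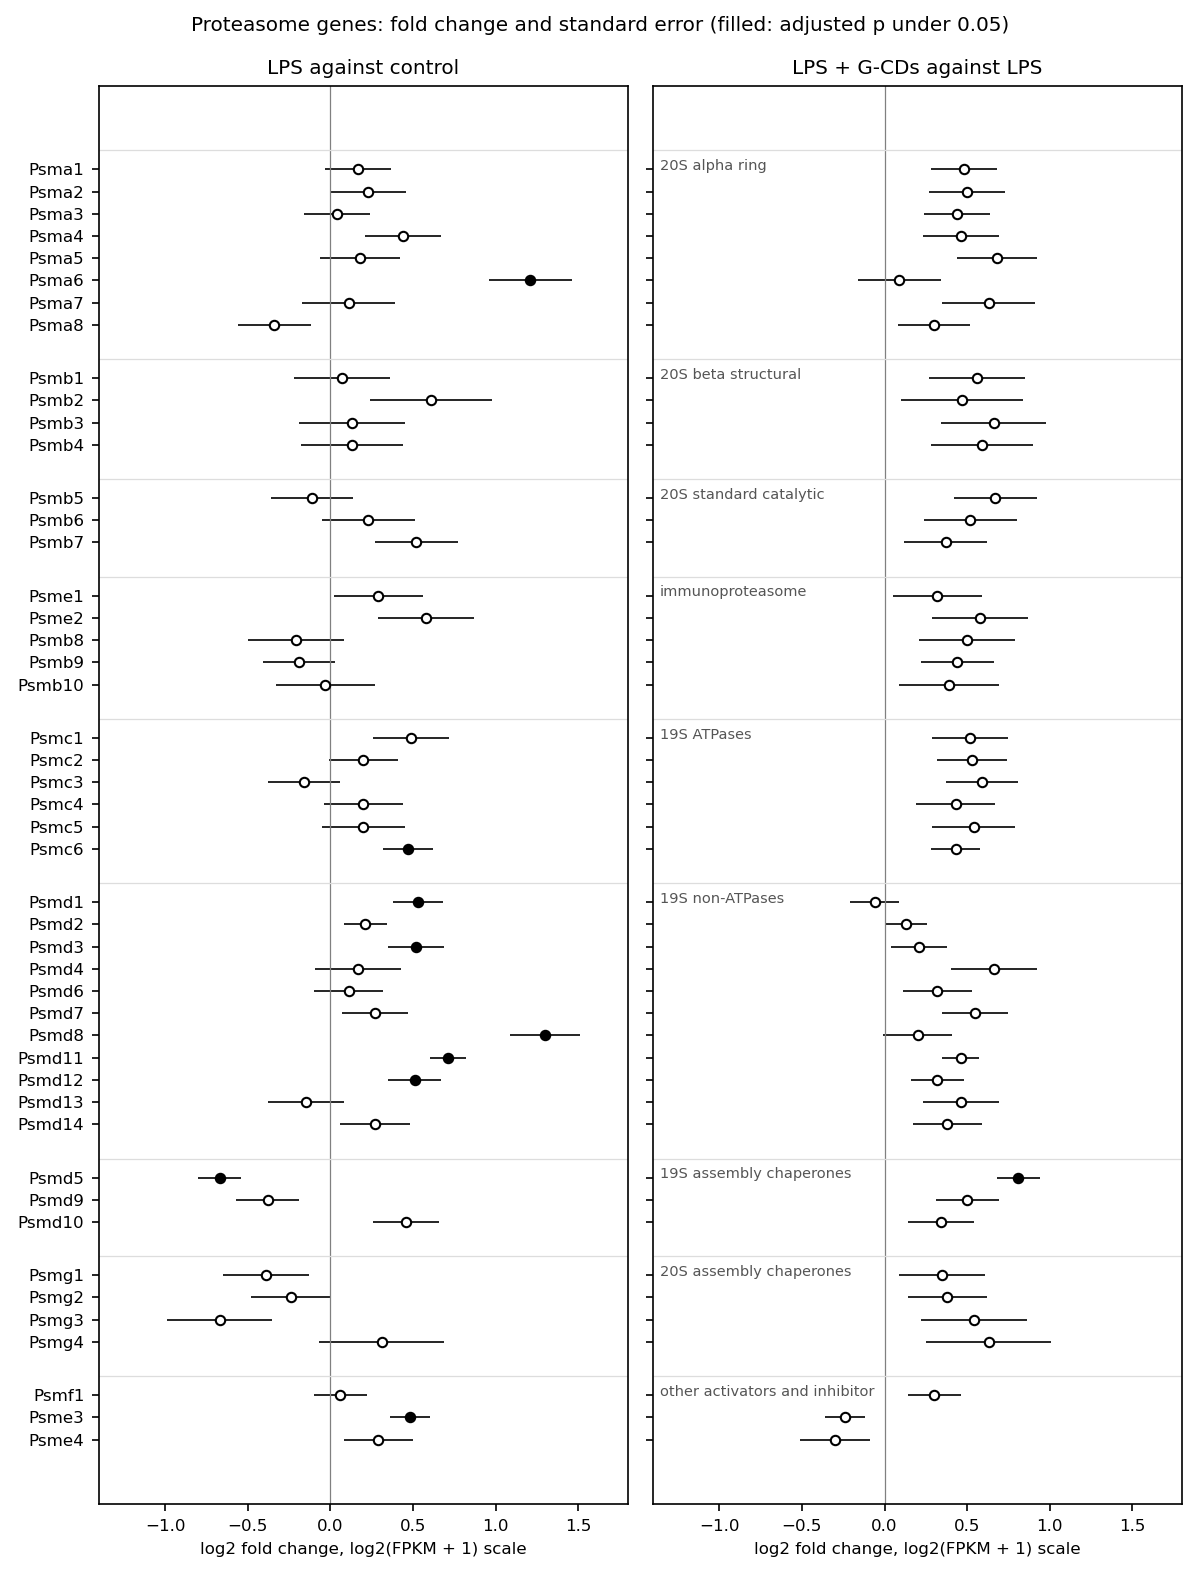
Log2 fold change (log2(FPKM + 1) scale, horizontal axis) of the 47 proteasome genes in LPS against control (left) and LPS + G-CDs against LPS (right), with bars for the standard error and filled points for an adjusted p under 0.05, grouped by role. On the left 9 points are filled and the genes spread from -0.67 to 1.30, and on the right 44 of 47 points lie above 0 and 1, Psmd5, is filled.

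The largest rise among the members was in the 19S cap. Psmd8, a subunit of the lid of the cap, stood at 46.3, 48.9 and 67.0 FPKM in the control libraries, at 132, 131 and 135 in the LPS libraries and at 118, 152 and 197 in the LPS + G-CDs libraries. The lowest LPS library was above the highest control library, and the LPS + G-CDs libraries lay on both sides of the LPS group. The log2 fold change from control to LPS was 1.30 (SE 0.21, adjusted p = 0.0015 in limma), and Psmd8 was called in each of 20 alternatives with a fold change of 1.03 to 1.46. None of its 50-base words occurred in transcripts of another gene.

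Psmd11, a lid subunit that braces the cap against the core, was measured at 26.4, 25.2 and 26.6 FPKM in control cells, at 43.1, 44.1 and 43.0 with LPS and at 54.4, 61.0 and 65.3 with LPS + G-CDs. The 3 groups did not overlap and formed ascending steps. LPS against control gave a log2 fold change of 0.71 (SE 0.11, adjusted p = 0.0012), called in all 20 alternatives. In the step from LPS to LPS + G-CDs the value was 0.46 (SE 0.11), and this step did not pass (adjusted p = 0.15).

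Psmd1, the scaffold that links the base of the cap to its lid, had 33.2, 30.1 and 25.7 FPKM in control, 43.2, 43.7 and 42.2 in LPS and 47.5, 43.2 and 33.9 in LPS + G-CDs libraries. It rose with LPS by 0.53 on the log2 scale (SE 0.15, adjusted p = 0.027), and the call held in 14 of 20 alternatives. Psmd3, a lid subunit, had 47.2, 47.6 and 58.8 FPKM in control, 77.5, 69.0 and 74.5 in LPS and 71.4, 83.0 and 105 in LPS + G-CDs libraries. For both genes every LPS library lay above every control library, and the LPS + G-CDs libraries overlapped the LPS group. The log2 fold change of Psmd3 with LPS was 0.52 (SE 0.17, adjusted p = 0.04), called in 11 of 20 alternatives and not with the gene-length trend removed (0.50, limma adjusted p = 0.058).

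Of the 11 non-ATPase subunits 5 passed the test, the fifth being the lid subunit Psmd12 at 0.51 (adjusted p = 0.038, called in 12 of 20 alternatives). The remaining 6 ranged from -0.15 for the lid subunit Psmd13 to 0.27 for the lid subunits Psmd7 and Psmd14, the latter being the enzyme that removes ubiquitin chains. The base scaffold Psmd2 was at 0.21 and the ubiquitin receptor Psmd4 at 0.17. Of the 6 ATPases, the motor of the cap, 1 rose, Psmc6, from a control mean of 34.9 ± 4.3 FPKM to 48.3 ± 1.44 (SD, n = 3 each). Its log2 fold change was 0.47 (adjusted p = 0.047), called in 11 of 20 alternatives. The other 5 ATPases ranged from -0.16 for Psmc3 to 0.49 for Psmc1, whose adjusted p was 0.14.

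In the alpha ring, Psma6 was the exception. Its levels were 142, 135 and 199.7 FPKM in control, 356, 370.5 and 362 in LPS and 283, 364 and 556 in LPS + G-CDs libraries. The LPS group lay clear of the control group, while LPS + G-CDs libraries fell on both sides of it. The log2 fold change with LPS was 1.21 (SE 0.25, adjusted p = 0.0067), and all 20 alternatives called it, from 0.94 to 1.38. The other 7 alpha subunits did not pass and ranged from -0.34 for Psma8 to 0.44 for Psma4. Among the transcripts of this ring, mean levels in LPS cells thus ran from 8.88 FPKM for Psma8 through 28.5 for Psma3 and 215 for Psma5 to 363 for Psma6. For Psma5, Psma4 and Psma3, 55.4%, 31.5% and 22% of the 50-base words also occurred in transcripts of other genes, so their reads could be split in counting, and for Psma6 this share was 0. Of the 4 structural beta subunits none passed, at 0.07 to 0.61 with 0 at an unadjusted p under 0.05 in limma and none called by voom on the recovered reads. Of all 11585 genes, 4849 had an unadjusted p under 0.05 in limma.

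**Figure D2:**
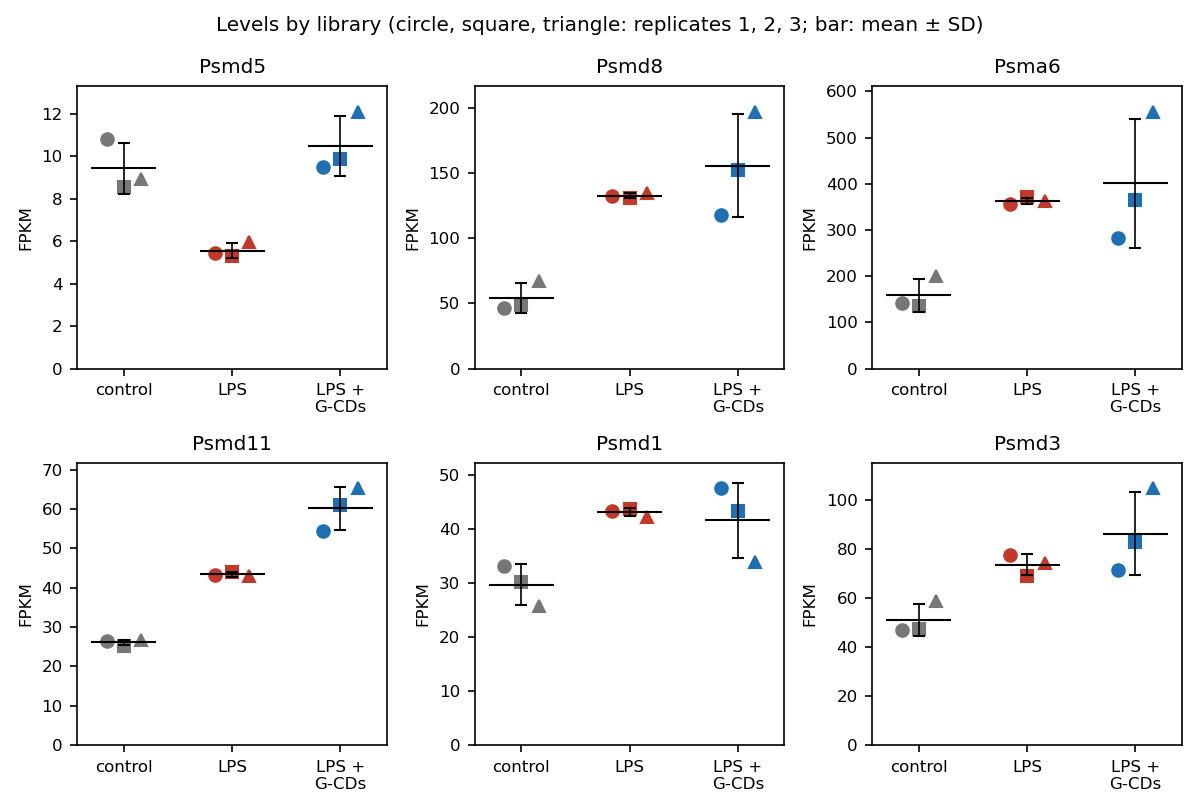
FPKM per library (vertical axes, from 0) of 6 proteasome genes in control, LPS and LPS + G-CDs cells, with circles, squares and triangles for replicates 1, 2 and 3 and bars for mean ± SD. Psmd5 is low in the 3 LPS libraries alone (5.28 to 5.97), Psmd8, Psma6, Psmd1 and Psmd3 are higher in LPS than in control libraries, and Psmd11 ascends over the 3 groups.

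The only member that passed the test as lower with LPS was an assembly factor. Psmd5, a chaperone that holds ATPases of the cap during assembly and is not part of the finished particle, stood at 10.8, 8.56 and 8.93 FPKM in control, at 5.42, 5.28 and 5.97 in LPS and at 9.5, 9.88 and 12.1 in LPS + G-CDs libraries. Every LPS library lay below every library of the other groups, and those groups overlapped each other. LPS against control gave -0.67 (SE 0.13, adjusted p = 0.0049), called in all 20 alternatives with values of -0.91 to -0.57. LPS + G-CDs against LPS gave 0.81 (SE 0.13, adjusted p = 0.043). Both comparisons use the same LPS libraries and are therefore not independent. At 7230 bases Psmd5 is among the longer members, 0.644% of its words were shared with other genes, and with the gene-length trend removed the second value was 0.98.

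The call on Psmd5 in LPS + G-CDs against LPS held in 7 of 20 alternatives, with fold changes of 0.65 to 1.01 and adjusted p of 0.034 to 0.26. It was lost in the fits without LPS replicate 1, 2 or 3, without control replicate 2 or 3, and without LPS + G-CDs replicate 2 or 3. The call was also lost with a pseudocount of 0.1, without a filter, under TPM scaling and with the 6 libraries of the comparison. The same held with the replicate number as a block and with length and GC trends removed. The other chaperones of the cap were Psmd9, at -0.38 with LPS and 0.50 with LPS + G-CDs, and Psmd10, also known as gankyrin, at 0.46 and 0.34, and neither passed in either comparison. Another gene model overlaps 25.5% of the exon bases of Psmd9. Among the 4 chaperones of 20S assembly, which pair to build the alpha ring, Psmg1, Psmg2 and Psmg3 were at -0.39, -0.24 and -0.67 with LPS and Psmg4 at 0.31. None passed, and voom called 0. At an unadjusted p under 0.05 in limma were 0 of 4, against 4849 of all 11585 genes. Psmg3 was the furthest of these, at 12.1, 7.08 and 10.2 FPKM in control and 5.68, 5.76 and 5.49 in LPS libraries, without overlap (adjusted p = 0.14). Its LPS + G-CDs libraries, at 4.85, 9.01 and 14.4, spanned both other groups.

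Among the further regulators, Psme3, a nuclear activator of the core, had 84.8, 90.7 and 90.4 FPKM in control, 124, 119 and 129 in LPS and 113, 104 and 96.2 in LPS + G-CDs libraries. The groups did not overlap in either comparison. With LPS it rose by 0.48 on the log2 scale (SE 0.12, adjusted p = 0.014, called in 17 of 20 alternatives), and in LPS + G-CDs against LPS the value was -0.24 (SE 0.12, adjusted p = 0.33). Psme4, a large activator, and Psmf1, an inhibitor of the core, were at 0.29 and 0.06 with LPS and did not pass.

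None of the 5 immunoproteasome genes passed the test in LPS against control in limma, and voom called 0. At an unadjusted p under 0.05 in limma were 0 of 5, against 4849 of all 11585 genes. The median log2 fold change of the 5 was -0.03. That median was 0.12 without control replicate 3 and -0.19 without control replicate 2, and after removal of the gene-length trend it was 0.10 and 1 of the 5, Psme2, was called. It was 0.22 with length and GC trends removed and -0.29 under TPM scaling, where the median of all genes was -0.210. Psmb8, the inducible chymotrypsin-like subunit, stood at 34.3, 22.1 and 33.3 FPKM in control, 24.7, 25.5 and 25.3 in LPS and 22.5, 37.6 and 54.5 in LPS + G-CDs libraries. The LPS libraries lay within the range of the control libraries, and the log2 difference was -0.21 (95% interval -0.87 to 0.45, adjusted p = 0.62). Another gene model overlaps 14.7% of the 3381 exon bases of Psmb8 in GENCODE M21. The deposited length of Psmb8 was 2736 bases, so this share need not hold for the bases counted.

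Psmb9, the inducible counterpart of the caspase-like subunit, was the weakest transcript of the family, at 4.72, 3.4 and 5.72 FPKM in control, 3.76, 3.33 and 4.55 in LPS and 4.29, 5.17 and 7.82 in LPS + G-CDs libraries. All 3 groups overlapped, and LPS against control was at -0.19 (95% interval -0.69 to 0.31, adjusted p = 0.56). Psmb10, the inducible trypsin-like subunit, had 32.8, 25.2 and 39.2 FPKM in control, 32.0, 31.1 and 30.7 in LPS and 26.5, 38.2 and 68.7 in LPS + G-CDs libraries. It too overlapped throughout, at -0.03 (95% interval -0.72 to 0.66, adjusted p = 0.95), and its sign turned when the length trend was removed (0.10).

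The PA28 genes lay higher in LPS than in control cells without passing the test. Psme1 had 49.1, 34.3 and 52.4 FPKM in control and 54.5, 54.3 and 55.2 in LPS libraries, a log2 difference of 0.29 (95% interval -0.33 to 0.91, adjusted p = 0.46). Psme2 had 29.0, 25.2 and 29.6 FPKM in control, 33.1, 50.7 and 44.8 in LPS and 42.9, 57.6 and 104 in LPS + G-CDs libraries. The LPS group lay above the control group for both genes, by a narrow margin for Psme1. The difference for Psme2 was 0.58 (95% interval -0.09 to 1.25, adjusted p = 0.17), and 4 of 20 alternatives called it, among them the fit without LPS + G-CDs replicate 3. Of the words of Psme2, 59.3% also occur in other genes, Psme2b among them, so its level is uncertain, and Psme2b itself was at 0.71 (adjusted p = 0.12).

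The standard counterparts did not pass either. Psmb5, the chymotrypsin-like subunit, had 69.8, 46.4 and 62.0 FPKM in control, 57.6, 50.6 and 54.3 in LPS and 61.7, 84.7 and 123 in LPS + G-CDs libraries. Its LPS libraries lay inside the control range (-0.11, adjusted p = 0.76), with the sign turning to 0.07 once length and GC trends were removed, and 57.1% of its words are shared with other genes. Psmb6, the caspase-like subunit, had 67.9, 61.3 and 87.3 FPKM in control, 85.3, 82.1 and 83.6 in LPS and 79.5, 117 and 188 in LPS + G-CDs libraries, at 0.23 for LPS against control (adjusted p = 0.58) and -0.04 under TPM scaling. Psmb7, the trypsin-like subunit, had 17.0, 24.2 and 31.5 FPKM in control, 33.1, 34.1 and 35.7 in LPS and 32.9, 45.2 and 59.2 in LPS + G-CDs libraries. Its LPS libraries all lay above the control libraries, at 0.52 (adjusted p = 0.15, and 0.041 with the replicate number as a block).

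**Figure D3:**
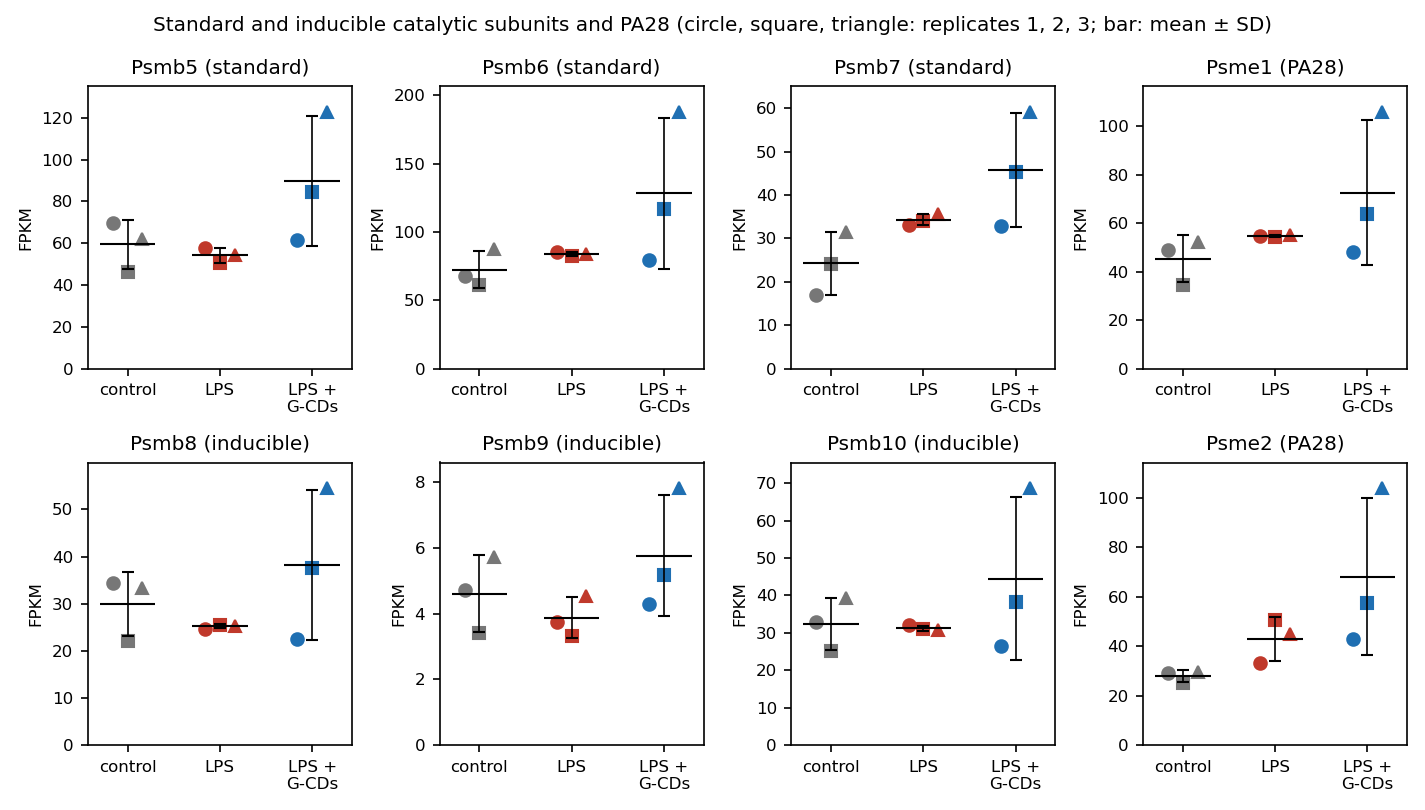
FPKM per library (vertical axes, from 0) of the 3 standard catalytic subunits and Psme1 (top) and their inducible counterparts and Psme2 (bottom), with symbols for replicates 1, 2 and 3 and bars for mean ± SD. LPS libraries lie within the control range for Psmb5, Psmb6, Psmb8 and Psmb10, and in the LPS + G-CDs group replicate 3 is the highest for all 8 genes.

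FPKM is per length, and the partners of a catalytic pair were set against each other within a library, although a trend with length remained between libraries. In no pair was the mean ratio of inducible to standard subunit higher in LPS than in control cells. Psmb10/Psmb7 was 1.93, 1.04 and 1.24 in control, 0.967, 0.91 and 0.86 in LPS and 0.807, 0.847 and 1.16 in LPS + G-CDs libraries. The LPS ratios all lay below the control ratios, at a log2 difference of -0.57, or -0.32 without control replicate 1 (exact permutation test, two-sided, p = 0.1, which is the smallest that 3 against 3 can give, adjusted p = 0.3 over 6 tests). On the log2(FPKM + 1) scale this difference was -0.46, still without overlap, with the gene-length trend removed, and -0.18 with overlap with length and GC trends removed (exact permutation p = 0.7). Psmb9/Psmb6 was 0.0695, 0.0555 and 0.0656 in control and 0.0441, 0.0405 and 0.0544 in LPS libraries. These groups did not overlap either (-0.46, exact permutation p = 0.1, adjusted p = 0.3), also with the length trend (-0.50) or length and GC trends (-0.47) removed. Psmb8/Psmb5 averaged 0.501 ± 0.0316 in control and 0.466 ± 0.0374 in LPS cells (SD, n = 3 each; exact permutation p = 0.4). In LPS + G-CDs against LPS the log2 differences of the 3 ratios were -0.17, 0.01 and 0.02, with adjusted p of 0.6, 1 and 1 by the same exact test, and the latter 2 turned sign when single libraries were left out. Psmb8/Psmb5 was at -0.07 when LPS + G-CDs replicate 1 was left out, at -0.11 when LPS replicate 2 was, and at -0.07 with the length trend, or length and GC trends, removed. With the length trend, or length and GC trends, removed, Psmb10/Psmb7 was at -0.16 with overlap and -0.22 without overlap in that comparison (exact permutation p = 0.2 and 0.1).

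The inducible subunits made up 31.7, 27.8 and 30.2% of the summed FPKM of the 6 catalytic genes in control libraries, 25.6, 26.4 and 25.9% in LPS and 23.4, 24.7 and 26.1% in LPS + G-CDs libraries. Control libraries were the highest, and the other groups overlapped. On the mean of log2(FPKM + 1), the 5 immunoproteasome genes lay below the 32 standard subunits by 1.14 to 1.42 in control, by 1.45 to 1.56 in LPS and by 1.28 to 1.65 in LPS + G-CDs libraries. The control and LPS groups did not overlap in this gap as deposited or with the gene-length trend removed (1.13 to 1.41 against 1.42 to 1.54), but they overlapped with length and GC trends removed (1.22 to 1.43 against 1.34 to 1.51). As deposited, the LPS + G-CDs libraries lay on both sides of the LPS group. Without Psma8 the groups overlapped or not in the same way on all 3 scales. These shares and gaps are descriptions without a test.

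Genes of the pathway outside the Psm symbols were read from a list of 32, of which 31 were found and tested. With LPS 10 of the 31 were higher and 0 lower in limma, against 15.8% of all genes higher and 15.6% lower. At an unadjusted p under 0.05 in either direction in limma were 14 of the 31, against 4849 of all 11585 genes. The changes were led by genes of antigen presentation. Tap1, a chain of the transporter that brings peptides into the endoplasmic reticulum, had 5.87, 4.78 and 4.96 FPKM in control, 20.4, 20.7 and 22.2 in LPS and 21.8, 26.5 and 25.9 in LPS + G-CDs libraries. It was higher in all LPS libraries than in any control library, at a log2 fold change of 1.84 (SE 0.12, adjusted p = 6.7e-06). Nlrc5, the transactivator of MHC class I genes, was likewise at 1.84 (adjusted p = 0.001). Tapbp, Zfand5, Nfe2l1, Zfand2a, Nploc4 and Ubqln1 also passed, at 0.42 to 1.19.

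Tap1 lies between the inducible catalytic genes in the MHC region of chromosome 17 (GRCm38). Psmb9 runs from 34181988 to 34187764 on the minus strand, Tap1 from 34187553 to 34197225 on the plus strand, Psmb8 from 34197721 to 34201454 and Tap2, the other transporter chain, from 34203527 to 34216321. The 95% interval of the LPS change was 1.56 to 2.11 for Tap1, above the intervals of its neighbours Psmb9 and Psmb8, which ended at 0.31 and 0.45, and Tap2 was at 0.25 (adjusted p = 0.35). The difference between neighbours was not tested. Exons of Tap1 overlap 5.79% of the exon bases of Psmb9. Nfe2l1, the factor that raises proteasome genes when the particle is inhibited, went from a mean of 34.7 ± 4.8 FPKM in control to 53.6 ± 1.98 in LPS cells (SD, n = 3 each; 0.62, adjusted p = 0.015). Nfe2l2, which encodes the antioxidant factor Nrf2, was at 0.10 (adjusted p = 0.72), and its sign turned under TPM scaling (-0.16). The maturation factor of the core, Pomp, was at 0.19 (adjusted p = 0.63) and the ubiquitin receptor Adrm1 at 0.48 (adjusted p = 0.16).

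The second comparison, LPS + G-CDs against LPS, addressed what adding the carbon dots changed. Psmd5 alone among the 47 passed the test, as a rise, against 0.25% of all genes called higher and 0.242% lower. Most other members nevertheless lay higher in LPS + G-CDs than in LPS cells. The log2 fold change was above 0 for 44 of 47 (93.6%), against 52% of all genes, with a median of 0.46, against 0.02. The members below 0 were Psmd1 at -0.06, Psme3 at -0.24 and Psme4 at -0.30, of which Psmd1 turned to 0.11 with the length trend removed. For 23 members (48.9%) every LPS + G-CDs library lay above every LPS library, against 12.9% of all genes, and for 1 member, Psme3, the reverse held, against 15%.

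The size of this difference followed the replicate. The median difference of the 47 genes from the LPS group mean was 0.075 in LPS + G-CDs replicate 1, 0.417 in replicate 2 and 0.922 in replicate 3, while the median of all genes was -0.015, 0.018 and 0.039. For 44 of the 47 genes replicate 3 was above replicate 2 and replicate 2 above replicate 1, an order that 39.7% of all tested genes had. With the gene-length trend removed the 3 medians were 0.069, 0.305 and 0.631. The median fold change of the members was 0.34 after this removal, 0.23 without replicate 3 and 0.65 without replicate 1, and 44 members, not the same ones throughout, lay above 0 in each case. Leaving out replicate 3 moved the fold change of 42 of the 47 members by over 1.5 times, and leaving out replicate 1 that of 16. Under TPM scaling it was 0.29, with the median of all genes at -0.116. The library size implied by the deposited values was 0.98, 0.96 and 0.88 times the reads on genes in replicates 1, 2 and 3, and the sum of FPKM over all genes was 333125, 382451 and 472870. The part of the libraries' own differences in this result was not tested beyond these values.

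**Figure D4:**
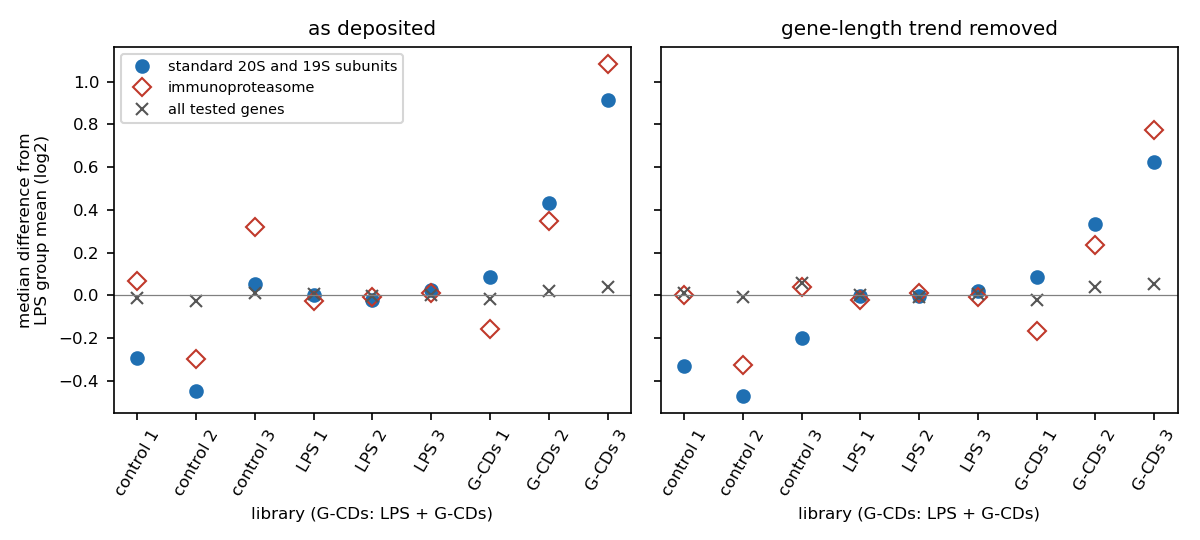
Median log2 difference from the LPS group mean (vertical axis) in each of the 9 libraries for the standard subunits (filled circles), the immunoproteasome genes (open diamonds) and all tested genes (crosses), as deposited (left) and with the gene-length trend removed (right). The standard subunits lie at 0.085, 0.433 and 0.912 in LPS + G-CDs replicates 1, 2 and 3 as deposited, and at 0.087, 0.333 and 0.624 with the trend removed.

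Whether standard and inducible genes differed from each other in this comparison was not tested. The median log2 fold change was 0.47 over the 32 standard subunits and 0.44 over the 5 immunoproteasome genes. None of either group passed the test in limma, and voom called 0 of both. At an unadjusted p under 0.05 in limma were 10 of 32 and 0 of 5, against 1765 of all 11585 genes. The 5 genes are too few to set a count of 0 apart from that share. Every LPS + G-CDs library was above every LPS library for 18 of the 32 standard subunits and for 0 of the 5 immunoproteasome genes, against 12.9% of all tested genes. Per library, the immunoproteasome genes lay at -0.157, 0.346 and 1.084 from the LPS mean. Psmb8 was at 0.50 (95% interval -0.16 to 1.16), Psmb9 at 0.44 (-0.06 to 0.95), Psmb10 at 0.39 (-0.30 to 1.08), Psme1 at 0.32 (-0.29 to 0.94) and Psme2 at 0.58 (-0.09 to 1.25), all with overlap between the groups. Without LPS + G-CDs replicate 3 these values were 0.20, 0.24, 0.03, 0.02 and 0.23 in the same order, with a median of 0.20, and without replicate 1 they were 0.82, 0.60, 0.70, 0.58 and 0.86, with a median of 0.70. Psme1 had 47.9, 63.9 and 106 FPKM in LPS + G-CDs libraries, and in replicate 1 it was below all LPS libraries. The standard counterparts Psmb5, Psmb6 and Psmb7 were at 0.67, 0.52 and 0.37 (adjusted p = 0.3, 0.34 and 0.41), and of these Psmb5 alone had no overlap. Without replicate 3 they were at 0.41, 0.20 and 0.16, and without replicate 1 at 0.91, 0.82 and 0.58.

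Across the roles, the 8 alpha subunits ranged from 0.09 for Psma6 to 0.68 for Psma5, the structural beta subunits from 0.47 to 0.66, the ATPases from 0.43 to 0.59 and the non-ATPase subunits from -0.06 for Psmd1 to 0.66 for the ubiquitin receptor Psmd4. Psma6 and Psmd8, which rose most with LPS, were at 0.09 and 0.20. Psmd8 was at 0.02 without LPS + G-CDs replicate 3 and 0.38 without replicate 1, and Psma6 turned to -0.17 with the length trend removed and to -0.18 without LPS + G-CDs replicate 3. Psma5 had 207, 212 and 225 FPKM in LPS and 245, 340.1 and 489 in LPS + G-CDs libraries, without overlap (adjusted p = 0.29). Psmd2 varied little, at 148, 143 and 153 in LPS and 158, 164 and 164 in LPS + G-CDs libraries, a value of 0.13 (adjusted p = 0.54). The 4 chaperones of 20S assembly lay between 0.35 and 0.63.

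Of the 31 related genes none passed in LPS + G-CDs against LPS in limma, and voom called 0. At an unadjusted p under 0.05 in limma were 4, against 1765 of all 11585 genes. Above 0 lay 15, and the median of the 31 was -0.01. The largest differences were Sem1, a small lid subunit, at 0.68, and Nlrc5 at -0.73, which had 10.6, 9.51 and 10.2 FPKM in LPS and 8.66, 5.13 and 4.07 in LPS + G-CDs libraries. The Nlrc5 groups did not overlap (adjusted p = 0.3). Pomp was at 0.50, Adrm1 at 0.40, Tap1 at 0.21, Tap2 at 0.26, Nfe2l1 at -0.21 and Nfe2l2 at -0.02, each with an adjusted p between 0.34 and 0.96. Without LPS + G-CDs replicate 3 the first 5 were at 0.24, 0.18, 0.18, 0.12 and -0.09, and without replicate 1 at 0.75, 0.60, 0.30, 0.44 and -0.33. Leaving out replicate 3 moved 24 of the 31 values by over 1.5 times.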

How the data were processed

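The authors isolated total RNA with TRIzol, selected mRNA with poly-T beads and, after Illumina sequencing, deposited an FPKM for every gene in each library, beside its coordinates and length. The aligner, counter and test are not given in the sources used here, and the build is GRCm38 (mm10) per the submitters' processing notes. FPKM times gene length came out as whole reads within 0.05 reads for 100% of values, which gave the depth (14752400 to 17312255 reads on genes per library). The implied library sizes differ from these totals, so the deposited FPKM hold a further scaling between libraries, whose method is not given in the sources used here. Libraries of a group differed by more than counting noise (chi-square per degree of freedom 4.03 or more), so none was treated as a duplicate deposit. This covers counting error only and does not show separate cultures.

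Genes reaching an FPKM of 1 in 3 or more libraries were fitted as log2(FPKM + 1) with limma 3.58.1 in R 4.3.3 (1 model of 9 libraries, eBayes with trend, two-sided, Benjamini-Hochberg over 11585 genes). This scale understates changes of low genes. Ratios of 2 genes were compared by exact permutation (scipy 1.17.1). The fit was also run on simulated data, and the outcome is not reported here. Members and lists were chosen with earlier results of these data known. Values are given in full for the immunoproteasome and standard catalytic genes and for up to 5 called rises and falls per comparison, and other members by range with the largest changes as examples; Psmg3, Psme3, Psma5, Psmd2, Psme2b, Psmd12, Psmc6 and the neighbours of Tap1 were added after their values were seen. Psme2b and Psmc3ip, whose symbols hold further letters, are no members.

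The alternatives were a pseudocount of 0.1, no filter, a mean FPKM of at least 5, TPM and median-of-ratios scaling, the 6 libraries of a comparison, eBayes without trend, voom on the recovered reads, removal of the gene-length trend, the replicate number as a block, the omission of 1 library at a time, and, chosen after seeing the data, removal of length and GC trends, removal of the length trend or of both for ratios, and the standard subunits without Psma8. Labels do not say what a replicate number marks. Same-numbered libraries of control and LPS deviated from their group means with correlations of 0.103, 0.137 and 0.113, each above the limit of 0.1, and those of LPS and LPS + G-CDs with 0.095, 0.0801 and 0.143. Shared sequence is the share of 50-base words of the longest transcript found in other genes (GENCODE M21), and promoters are from RefSeq (GRCm38.p6). Of the related genes that passed, 2 are counted but not reported here by name.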

Additional observations from a re-analysis of the deposited data

How the results depend on the processing

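With LPS, the number of members higher was 8 and moved to 5 without a filter and 3 under TPM scaling, with 3 to 9 when 1 library was left out. The lower count went from 1 to 7 under TPM and 2 in the 6-library fit (1 to 2 leaving out a library). Over all 11585 genes, TPM took the higher count from 1827 to 1015 and the lower count from 1803 to 3106. The immunoproteasome count went from 0 to 1 in the 6-library fit and with the length trend, or length and GC trends, removed (0 to 1 leaving out a library). For related genes 5 were higher under TPM. The median of the standard subunits was -0.06 under TPM. For LPS + G-CDs against LPS the count of 1 became 0 with a pseudocount of 0.1, no filter, TPM, 6 libraries, or length and GC trends removed, and was 0 to 1 leaving out a library. Psmb9/Psmb6 in that comparison was -0.08 as a ratio of FPKM + 1 and -0.10 to 0.13 leaving out a library, and Psmb10/Psmb7 was -0.14 to 0.12, and -0.16 and -0.22 with length, and length and GC, trends removed.

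With the replicate number as a block, LPS against control called 9 members higher, adding Psmb7 (0.52, adjusted p = 0.041), and 1 lower, and LPS + G-CDs against LPS called 0 of 47 (limma, Psmd5 at adjusted p = 0.062). By the limit of 0.1 the numbers would pair control with LPS libraries but not LPS with LPS + G-CDs libraries. The correlations of both comparisons overlap, however (0.103 to 0.137 and 0.0801 to 0.143), so they cannot show whether the numbers mark pairs.

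Of the 47 members, 21 changed sign in at least 1 alternative in LPS against control (17 of them under TPM, where 18 members were above 0 in place of 35) and 3 in LPS + G-CDs against LPS (Psma6, Psmd1 and Psmd2). Of the 31 related genes 9 and 10 did. Genes that did in LPS against control included Psmb10 (0.10 and 0.22 with length, and length and GC, removed; -0.19 to 0.12 leaving out a library), Psmb5 (0.07 with both removed; -0.28 to 0.01), Psmb6 (-0.04), Pomp (-0.07) and Nfe2l2 (-0.16) under TPM, Nfe2l2 also at -0.13 to 0.22. The other members that changed sign there were Psma1, Psma2, Psma3, Psma5, Psma7, Psmb1, Psmb3, Psmb4, Psmc2, Psmc3, Psmc4, Psmc5, Psmd2, Psmd4, Psmd6, Psmd7, Psmf1 and Psmg4. In LPS + G-CDs against LPS they included Psma6 (-0.08 under TPM, -0.17 and -0.14 with the trends removed, -0.18 to 0.31), Psmd1 (0.11 and 0.13 with the trends removed, -0.17 to 0.07), Nfe2l2 (-0.05 to 0.02) and Tapbp (-0.10 to 0.03). The causes were not tested. Psmb9 has no value under the filter on a mean FPKM of at least 5. With 3 libraries a group, exact tests cannot go below p = 0.1, and differences within the control or LPS + G-CDs spread were not detectable.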

Other observations

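Psmc3ip, a recombination factor that shares a symbol with the ATPases but is no part of the proteasome, was at -0.02 in LPS against control and 0.09 in LPS + G-CDs against LPS, with adjusted p of 0.95 and 0.84 in limma. Psme2b, which shares sequence with Psme2, stood at 54.6, 29.0 and 46.4 FPKM in control, 78.9, 57.0 and 73.8 in LPS and 44.5, 72.4 and 97.1 in LPS + G-CDs libraries. Its LPS libraries lay above all control libraries, and its LPS + G-CDs libraries spanned the LPS group. Control replicate 3 was the highest control library for 33 of the 47 proteasome genes and control replicate 2 the lowest for 31.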
